A study of Mus musculus with 10 samples.

Results

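The genes described here are 10 genes that carry fibroblast growth factor (FGF) signals to the MAP kinase ERK, or whose transcription answers to ERK. They are the ligand Fgf4, the receptors Fgfr1 and Fgfr2, the feedback inhibitors Spry2, Spry4, Dusp4 and Dusp6, and the transcription factors Etv4, Etv5 and Egr1. They were taken as a named list of symbols, matched to the Ensembl rows of the deposited count table. All 10 were among its 30677 genes, and all 10 passed the filter on low counts, which kept 20027 genes for testing.

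The cells were TNGA mouse embryonic stem (ES) cells, 1 line in which green fluorescent protein is expressed from 1 of the alleles of Nanog. They were cultured in serum with leukaemia inhibitory factor (LIF) and received either 100 µM MB-3, a small-molecule inhibitor of the histone acetyltransferase Kat2a (Gcn5), or the vehicle DMSO alone. Both groups carried 0.1% DMSO, both lasted 48 hours, and both were dissociated with trypsin before RNA was taken. RNA-seq of polyadenylated RNA gave 3 libraries per treatment, lettered A, B and C, and acetylation of lysine 9 of histone H3 (H3K9ac) was mapped by ChIP-seq, with duplicates merged into 1 peak list per treatment. The RNA-seq libraries held 46863700 to 51137896 counts in DMSO and 42270312 to 49334434 counts in MB-3. The labels say that cells were treated in triplicate but not that the cultures were independent, so p-values measure the spread between these libraries, which may be technical. RNA was taken from whole cultures, in which fewer cells of a type and less RNA per cell cannot be told apart.

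FGF ligands bind receptor tyrosine kinases at the cell surface, which act through the adaptors Frs2 and Grb2, RAS, RAF and MEK to activate ERK. Active ERK switches on ETS factors and immediate early genes, and it also induces Sprouty proteins and MAP kinase phosphatases, which damp the signal. In mouse ES cells Fgf4 is made by the cells themselves, and the signal it gives through ERK is known for preparing them to leave the naive state.

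The cells carried the transcripts that define ES cells. In DMSO, Pou5f1 was at 650.4 to 713 CPM (a gene's share of all counts in a library, scaled to the usual fixed total, with the library size normalised by TMM), Sox2 at 436 to 476 CPM and Nanog at 256 to 274 CPM. Markers of primitive endoderm were low, and Sox17 and Foxa2 did not pass the filter in these libraries. With treatment as the only term, 1 of the 8 ES cell markers was called lower with MB-3, the transcription factor Tbx3 (log2 fold change -0.40, adjusted p = 0.0243, edgeR with Benjamini-Hochberg adjustment), beside 0.105% of all genes tested. Of 4 markers of the primed epiblast, 1 was called higher, the DNA methyltransferase Dnmt3b (0.32, adjusted p = 0.0358), beside 0.0999% of all genes. With the replicate letter as a block, explained next, 2 of the 8 were called lower (Tbx3 and Tfcp2l1), and of the 4 primed markers 2 were called higher (Dnmt3b and Otx2) and 1 lower (Fgf5), beside 3.22% of all genes called higher and 3.90% called lower.

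One gene group set the libraries apart by their letter. The summed level of the simple epithelial keratins Krt8, Krt18 and Krt19 was 161 CPM in DMSO A, 87.9 CPM in DMSO B and 283 CPM in DMSO C. In MB-3 it was 72.2 CPM in A, 50.2 CPM in B and 124 CPM in C. Library C was highest and B lowest in both treatments, and every MB-3 library was below the DMSO library of its letter. Results were fitted with treatment as the only term and also with the replicate letter as a block, which compares MB-3 with DMSO within each letter. A log2 fold change given alone, or with both adjusted p-values, is from the fit with treatment only. The labels do not say what a letter stands for.

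With treatment as the only term, 0 of the 10 genes were called at an adjusted p under 0.05, where 0.205% of all genes tested were called (edgeR, Benjamini-Hochberg). At an unadjusted p under 0.05 there were 6 of 10, beside 10.9% of all genes. With the replicate letter as a block, 6 of 10 were called, beside 7.12% of all genes. The 5 called higher with MB-3 were Fgf4, Fgfr2, Spry2, Spry4 and Etv5, beside 3.22% of genes called higher. The gene called lower was Egr1, beside 3.90% of genes called lower. Fgfr1, Dusp4, Dusp6 and Etv4 were called in neither fit. The shares are higher among abundant genes: of the 7998 genes at or above the mean level of Fgfr2, the lowest of the 10, 12.3% had an unadjusted p under 0.05 and 9.91% were called with the block, and 5.74% were called higher. The median log2 fold change of the 10 genes was 0.14 and that of all genes tested was -0.0011.

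**Figure D1:**
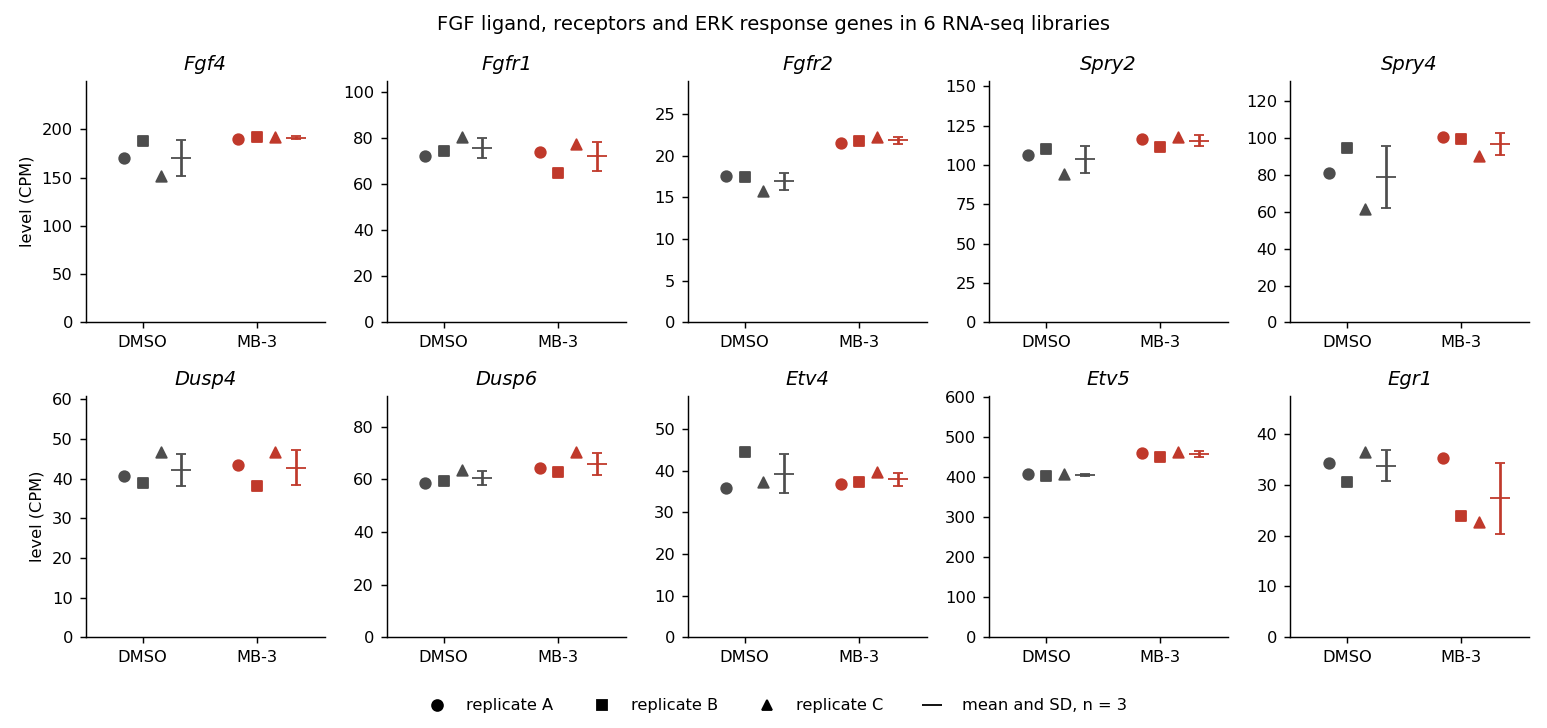
Level of each of the 10 genes in CPM (vertical axis, from 0, scale differing between panels) in the 3 DMSO and 3 MB-3 libraries; the marker shape gives the replicate letter and the bar the mean and SD. The groups stand apart for Fgf4, Fgfr2, Spry2 and Etv5, and overlap for the other 6 genes.

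In 4 of the 10 genes the lowest MB-3 library exceeded the highest DMSO library, and in 0 of 10 the reverse held, beside 8.22% and 7.37% of all genes. Among the 7998 abundant genes, 10.5% were higher in this way. The levels of all 10 genes are shown in the plot by library.

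Promoter sequence was available for 5 of the 10 genes in RefSeq promoter entries on GRCm38.p6, in windows from 250 bases before to 50 bases after the start. The 6 entries belonged to Fgf4, Fgfr2, Spry2, Dusp6 and Etv5, the last with 2 starts. No window held the letters CCGGAAG (a site preferred by ETS factors), TGACGTCA (the cyclic AMP response element) or TGANTCA (the AP-1 element) on either strand, nor a CArG box. Among all 32851 entries, 8.86% held CCGGAAG, 1.79% TGACGTCA, 7.81% TGANTCA and 1.63% a CArG box. The sequences below are the 250 bases before the start of the genes whose H3K9ac peaks are described further on. Capitals mark GGAA, the core letters of ETS sites, or TTCC, the same letters on the other strand, which were searched after the longer site gave no match.

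Dusp6, chr10:99262981-99263230, plus strand: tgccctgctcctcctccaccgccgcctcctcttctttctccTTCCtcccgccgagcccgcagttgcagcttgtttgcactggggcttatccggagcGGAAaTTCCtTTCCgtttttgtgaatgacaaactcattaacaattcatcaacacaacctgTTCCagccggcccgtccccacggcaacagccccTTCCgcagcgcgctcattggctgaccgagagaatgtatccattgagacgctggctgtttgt
Spry2, chr14:105896820-105897069, minus strand: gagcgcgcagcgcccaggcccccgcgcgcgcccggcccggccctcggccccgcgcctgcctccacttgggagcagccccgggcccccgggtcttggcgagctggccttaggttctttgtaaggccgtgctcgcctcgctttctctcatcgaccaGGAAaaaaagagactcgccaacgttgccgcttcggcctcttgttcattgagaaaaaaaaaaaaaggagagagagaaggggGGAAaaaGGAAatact
Etv5, outer start, chr16:22439571-22439820, minus strand: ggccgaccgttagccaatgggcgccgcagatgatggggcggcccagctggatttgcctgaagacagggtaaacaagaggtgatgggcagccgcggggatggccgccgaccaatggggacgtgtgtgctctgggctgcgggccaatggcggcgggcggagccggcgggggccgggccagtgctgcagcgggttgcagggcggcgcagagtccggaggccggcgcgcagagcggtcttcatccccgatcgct
Etv5, inner start, chr16:22438369-22438618, minus strand: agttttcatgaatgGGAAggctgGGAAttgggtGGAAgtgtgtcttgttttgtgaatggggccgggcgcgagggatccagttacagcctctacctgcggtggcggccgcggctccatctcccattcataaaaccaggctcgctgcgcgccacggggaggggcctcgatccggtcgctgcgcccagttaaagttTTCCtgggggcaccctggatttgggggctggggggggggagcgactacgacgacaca

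The Dusp6 window held 6 such matches, a number reached by 8.69% of all entries, against a median of 3 matches. Spry2 held 3, the inner start of Etv5 held 4 and the outer start of Etv5 held 0. At least 1 match was present in 93.4% of all entries. The windows were rich in G and C, at 56.4% in Dusp6, 62.4% in Spry2, 71.2% at the outer and 62.0% at the inner start of Etv5, where the median entry had 52.4%. Among the other promoters, that of Fgf4 stood at 71.2% with 0 matches and that of Fgfr2 at 44.0% with 2 matches.

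The ligand Fgf4 (ENSMUSG00000050917, chromosome 7, 144847367 to 144865243 on GRCm38) was at 171 CPM in DMSO A, 188 CPM in DMSO B and 152 CPM in DMSO C. In MB-3 it was at 189.8 CPM in A, 192 CPM in B and 192 CPM in C. The MB-3 libraries lay close together and above all DMSO libraries, of which B came nearest and C was farthest below. The DMSO mean was 170.2 ± 18.4 CPM (SD, n = 3), and the MB-3 mean was 12.5% higher at 191 ± 1.35 CPM (SD, n = 3). The log2 fold change was 0.17 (SE 0.071), with adjusted p = 0.398 by treatment only and 0.0227 with the block. Without DMSO C the log2 fold change was 0.09 with treatment as the only term, and the block without letter C did not call Fgf4.

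Fgfr1 and Fgfr2 encode receptor tyrosine kinases of the FGF family. Fgfr1 (ENSMUSG00000031565, chromosome 8, 25513654 to 25575718) was at 72.3, 74.2 and 80.5 CPM in DMSO A, B and C and at 73.9, 64.8 and 77.1 CPM in MB-3 A, B and C. The groups overlapped, with C highest in both. Its log2 fold change was -0.07 with a 95% interval from -0.23 to 0.08 (adjusted p = 0.753, and 0.439 with the block). Leaving out single libraries moved it from -0.12 without MB-3 C to -0.0047 without MB-3 B. The gene model shares 164 exon bases, 1.66% of its exon length, with a gene on the opposite strand, and the use of strand in counting is not given in the sources used here.

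Fgfr2 (ENSMUSG00000030849, chromosome 7) was at 17.6, 17.5 and 15.8 CPM in DMSO A, B and C and at 21.5, 21.7 and 22.3 CPM in MB-3 A, B and C. All MB-3 libraries were above all DMSO libraries, by more than the spread within either group. From a DMSO mean of 17.0 ± 1.02 CPM (SD, n = 3), the MB-3 mean was 28.9% higher, 21.8 ± 0.401 CPM (SD, n = 3). With all libraries this was the largest log2 fold change of the 10 genes, at 0.37 (SE 0.072, 95% interval 0.21 to 0.52). Without DMSO B that of Spry4 was larger (0.44 against 0.39, treatment only). Without MB-3 A that of Egr1 was larger in size (-0.53 against 0.38, treatment only). For Fgfr2 the adjusted p was 0.0644 with treatment only and 0.000296 with the block (edgeR, Benjamini-Hochberg). Without DMSO C the treatment-only log2 fold change of Fgfr2 was 0.32 (adjusted p = 0.270). The counts are uncertain in 1 respect: the GENCODE M21 model of Fgfr2 runs from 130162451 to 133123350, over 69 other genes, and shares 314 exon bases (3.04%) with them, whereas the RefSeq gene ends at 130266808.

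Spry2 and Spry4 encode Sprouty proteins, which hold back signalling between the receptor and ERK. Spry2 (ENSMUSG00000022114, chromosome 14, 105891947 to 105896819) was at 106, 110.4 and 94.2 CPM in DMSO A, B and C and at 117, 112 and 118 CPM in MB-3 A, B and C. The groups did not overlap, although the highest DMSO and the lowest MB-3 library, both lettered B, were nearly level. Its log2 fold change was 0.16 (SE 0.065), with adjusted p = 0.390 and 0.0493 with the block. Without DMSO C it was 0.09 by treatment only, and the block without letter A or without letter C did not call Spry2.

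Spry4 (ENSMUSG00000024427, chromosome 18, 38586247 to 38601415) was the most variable of the higher genes. It was at 81.2 CPM in DMSO A, 94.6 CPM in DMSO B and 61.3 CPM in DMSO C. It was at 101 CPM in MB-3 A, 99.7 CPM in MB-3 B and 90.3 CPM in MB-3 C. The groups overlapped by the pair DMSO B and MB-3 C, C was the lowest letter in both treatments, and each MB-3 library was above the DMSO library of its letter. The log2 fold change was 0.29 (SE 0.116) with adjusted p = 0.367, and 0.31 (SE 0.058) with adjusted p = 0.000548 in the block. Without DMSO C the treatment-only value was 0.14 (adjusted p = 0.765), and the block without that library gave 0.19 (adjusted p = 0.0157). Leaving out DMSO B instead gave 0.44 (adjusted p = 0.0166).

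Dusp4 and Dusp6 encode phosphatases that remove the activating phosphates from MAP kinases, Dusp6 with a preference for ERK. Dusp4 (ENSMUSG00000031530, chromosome 8, 34807297 to 34819894) was at 40.7, 39.0 and 46.7 CPM in DMSO A, B and C and at 43.5, 38.1 and 46.8 CPM in MB-3 A, B and C. The libraries followed their letter, with C highest and B lowest in both groups. Its log2 fold change was 0.02, with a 95% interval from -0.16 to 0.21, and -0.08 to 0.13 with the block (adjusted p = 0.944 and 0.862). Dusp6 (ENSMUSG00000019960, chromosome 10, 99263231 to 99267489) was at 58.6, 59.5 and 63.7 CPM in DMSO A, B and C and at 64.2, 62.8 and 70.5 CPM in MB-3 A, B and C. The groups overlapped by 1 library on each side, DMSO C and MB-3 B, while each MB-3 library was above the DMSO library of its letter. The log2 fold change was 0.12 (95% interval -0.02 to 0.26), with adjusted p = 0.522 and 0.150 with the block, and the log2 fold change was 0.07 without MB-3 C.

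Etv4 and Etv5 are ETS transcription factors of the PEA3 subfamily, whose transcription follows FGF signalling in many tissues. Etv4 (ENSMUSG00000017724, chromosome 11, 101769742 to 101785371) was at 35.9, 44.6 and 37.3 CPM in DMSO A, B and C and at 36.9, 37.2 and 39.8 CPM in MB-3 A, B and C. DMSO B was the highest of the 6 libraries and the other 5 lay within 35.9 to 39.8 CPM. Its log2 fold change of -0.05 (adjusted p = 0.863, and 0.739 with the block) turned to 0.05 without DMSO B.

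Etv5 (ENSMUSG00000013089, chromosome 16, 22381309 to 22439719) had the highest level of the 10 genes and the smallest spread in DMSO relative to its mean. It was at 407, 402 and 408 CPM in DMSO A, B and C and at 461, 450.2 and 464 CPM in MB-3 A, B and C. The groups stood clear of each other, and B was lowest in both. The MB-3 mean of 458 ± 7.21 CPM (SD, n = 3) was 13.0% higher than the DMSO mean of 406 ± 2.93 CPM (SD, n = 3). The log2 fold change was 0.18 (SE 0.053, 95% interval 0.06 to 0.29), with adjusted p = 0.233 by treatment only and 0.00605 with the block. It moved little when single libraries were left out, from 0.17 to 0.19 over the 6 refits with treatment only, none of which called it. With the block it was called without letter C but not without A or B.

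Egr1 (ENSMUSG00000038418, chromosome 18, 34859823 to 34864984), a zinc finger factor induced within minutes of ERK activation, was the only gene of the 10 called lower, and only with the block. It was at 34.3, 30.5 and 36.6 CPM in DMSO A, B and C and at 35.4, 24.0 and 22.7 CPM in MB-3 A, B and C. MB-3 B and C were below all DMSO libraries, while MB-3 A was above 2 of the 3. Its log2 fold change was -0.30 (SE 0.134) with adjusted p = 0.437, and -0.32 (SE 0.077) with adjusted p = 0.00807 in the block. Without MB-3 A the treatment-only value was -0.53 (adjusted p = 0.168), and without MB-3 C it was -0.18. The block without letter A called Egr1, and the block without B or without C did not.

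**Figure D2:**
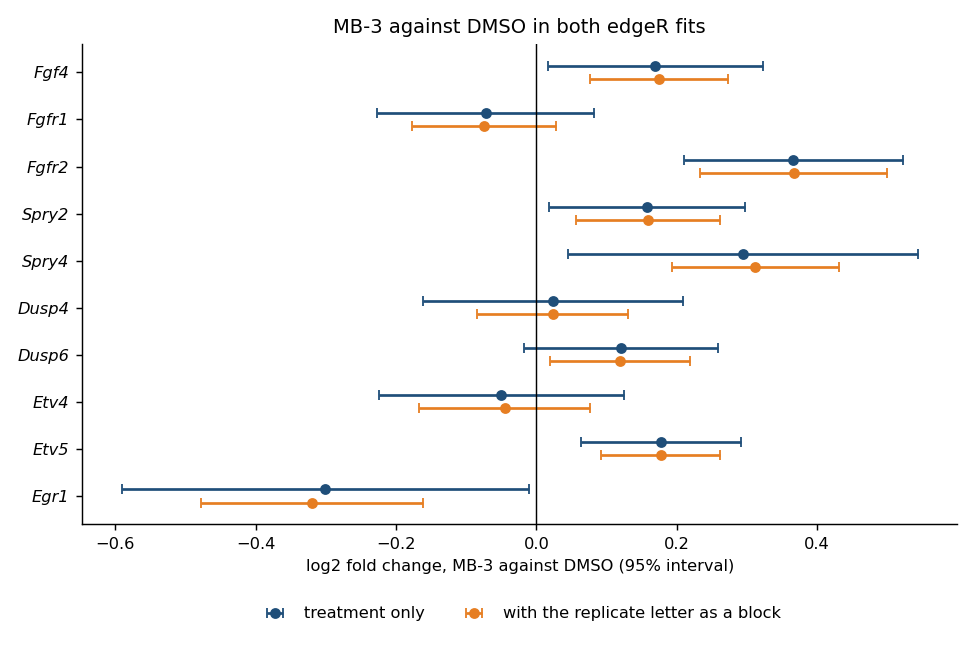
Log2 fold change of MB-3 against DMSO (horizontal axis) with its 95% interval for the 10 genes, with treatment as the only term (blue) and with the replicate letter as a block (orange). The estimates differ little between the fits, while the intervals with the block are narrower, for Spry4 0.19 to 0.43 against 0.04 to 0.54.

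The letter itself was tested in the fit with both terms. It was called for 3 of the 10 genes, beside 7.84% of all genes tested and 12.0% of the 7998 abundant ones. In all, the letter was called for 1570 genes. Without letter B it was called for 1 of the 10 and 324 genes in all, without letter C for 1 of the 10 and 1741 in all, and by the DESeq2 likelihood ratio test for 0 of the 10 and 656 in all. Spry4 was lower in C than in A by 0.28 and lower than in B by 0.38 on the log2 scale (adjusted p = 0.00180, edgeR, Benjamini-Hochberg). Dusp4 was higher in C than in B by 0.28 (adjusted p = 0.0166). For Egr1 the block placed B 0.37 and C 0.26 below A (adjusted p = 0.0245), although in DMSO alone C was the highest. The adjusted p was 0.890 for Fgfr2 and 0.911 for Etv5.

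**Figure D3:**
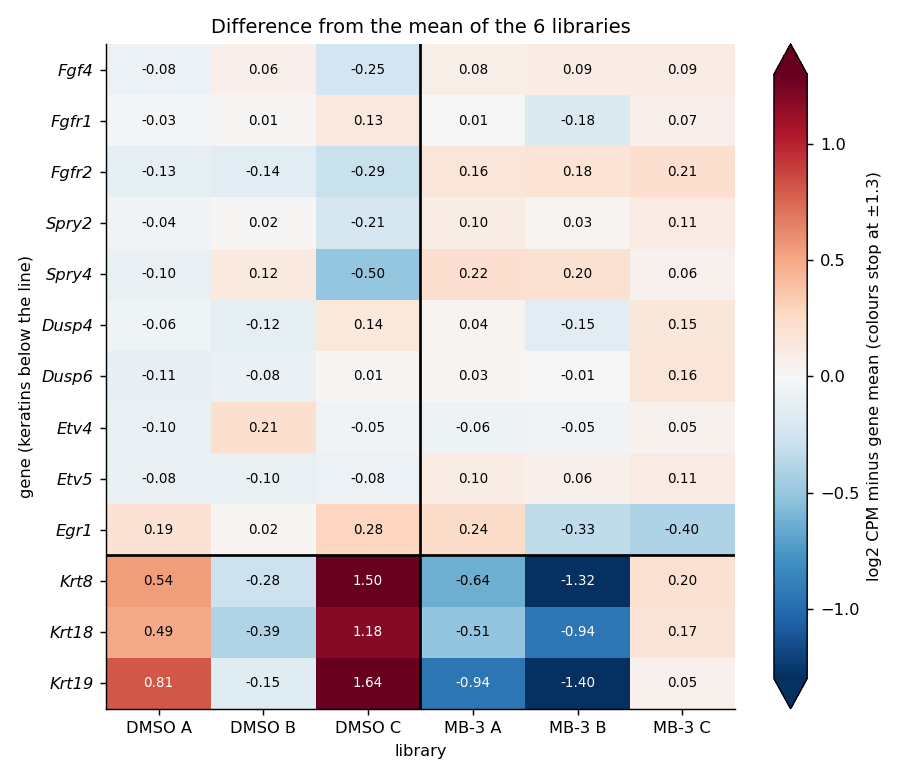
Difference of each gene's log2 CPM from its own mean over the 6 libraries (colour and printed value) for the 10 genes and, below the line, the keratins Krt8, Krt18 and Krt19. DMSO C is lowest for Fgf4, Fgfr2, Spry2 and Spry4 and highest for the keratins; Krt19 stands at 1.64 in DMSO C and -1.40 in MB-3 B.

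DMSO C, the library with the highest keratin level, was the lowest of the 6 for Fgf4, Fgfr2, Spry2 and Spry4 and the highest for Egr1 and Fgfr1. All 3 keratins were called lower with the block, beside 3.90% of all genes, and 0 of 3 with treatment only, beside 0.105%. These shares also apply to the lists that follow. Krt18 was the most abundant and had a log2 fold change of -0.92 with treatment only and -0.87 with the block. Those of Krt8 and Krt19 were -1.22 and -1.58 with treatment only, and -1.18 and -1.55 with the block. Of 3 trophoblast markers Cdx2 and Hand1 passed the filter and neither was called in either fit, and Elf5 had 1, 1 and 3 counts in DMSO A, B and C and 0 in each MB-3 library, too few to be tested. The summed level of the trophoblast list was 2.18, 1.22 and 4.22 CPM in DMSO A, B and C and 1.59, 1.05 and 2.33 CPM in MB-3 A, B and C. The fibroblast list of 6 genes summed to 7.52, 6.24 and 8.20 CPM in DMSO and 5.10, 5.42 and 5.25 CPM in MB-3. Its most abundant gene was Thy1, 2 of the 5 tested, Col1a1 and Col1a2, were called lower with the block and Col3a1, Thy1 and Dcn were not, and Postn, at 0 in MB-3 C, did not pass the filter. The 7 primitive endoderm markers summed to 9.91, 8.71 and 12.8 CPM in DMSO and 8.18, 8.81 and 9.98 CPM in MB-3, mostly Dab2, with 0 of 5 tested called. The part of cells carrying such markers in the values of Spry4, Egr1 and the others was not tested. Without DMSO C, the block still called Fgfr2, Spry4 and Etv5 and no longer called Fgf4, Spry2 and Egr1, while genes called in all went from 1425 of 20027 to 1034 of 20314. In that fit MB-3 C is alone in its block and adds nothing to the comparison.

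Levels can be compared between genes only per length, here as CPM per kilobase of all annotated exons, which understates genes that use few of their exons. On that scale the order in DMSO was Etv5 (98.8), Fgf4 (53.3), Spry2 (49.6), Dusp6 (19.3), Spry4 (16.6), Dusp4 (15.4), Etv4 (12.7), Fgfr1 (7.66), Egr1 (7.53) and Fgfr2 (1.64), and the order was the same in MB-3. Etv5 was above Fgf4, and Fgf4 above Spry2, in all 6 libraries. Some neighbours did not keep their order in every library: Dusp6 was above Spry4, and Fgfr1 above Egr1, in 3 of 6 libraries, and Spry4 was above Dusp4, and Dusp4 above Etv4, in 5 of 6. The transcripts of Fgfr2 were thus the scarcest of the 10 on this scale, with a DMSO mean of 1.64 ± 0.0987 (SD, n = 3) and an MB-3 mean of 2.12 ± 0.0389 (SD, n = 3).

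Within related pairs, ratios of the per-kilobase levels were compared by exact two-sided permutation tests of 3 against 3 libraries, which cannot go below p = 0.10. The 4 pairs were chosen after the levels were seen. The ratio of Fgfr2 to Fgfr1 was 0.233, 0.225 and 0.187 in DMSO A, B and C and 0.278, 0.321 and 0.276 in MB-3 A, B and C. The groups did not overlap (exact permutation p = 0.1, adjusted over the 4 pairs p = 0.2). The ratio of Etv5 to Etv4 was 8.56, 6.82 and 8.27 in DMSO and 9.46, 9.16 and 8.82 in MB-3, again without overlap (exact permutation p = 0.1, adjusted p = 0.2). Spry4 to Spry2 went from a mean of 0.332 to 0.369 and Dusp6 to Dusp4 from 1.26 to 1.35, both with overlapping groups (exact permutation p = 0.3 each). Reads that fit both genes of such a pair could be shared between them, and how they were counted is not given in the sources used here.

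The genes whose libraries most resembled the mean of the 10 were sought among 10154 others with a mean of at least 10 CPM, by Pearson's r over the 6 libraries to the mean of the standardised log2 levels. That mean follows only some of the 10: its r was 0.61 to 0.83 with Fgf4, Fgfr2, Spry2, Spry4, Dusp6 and Etv5, but 0.33 with Dusp4, 0.25 with Etv4, 0.10 with Fgfr1 and -0.46 with Egr1. The 5 nearest were Polrmt (0.994), which encodes the mitochondrial RNA polymerase, Mta1 (0.979), a subunit of the NuRD complex, Micu3 (0.977), a regulator of mitochondrial calcium uptake, Zfp628 (0.972) and Gnaq (0.969), a G protein alpha subunit. These values are given as a description, over only 6 libraries. None of the 5 was called in either fit. Their log2 fold changes lay from 0.09 (Gnaq) to 0.15 (Mta1).

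Other genes of the pathway were taken from 7 lists by role, chosen with earlier results of these data known. Of 86 genes listed, 84 were in the table and 74 were tested. With treatment only, 0 were called, beside 0.205% of all genes, while 16 had an unadjusted p under 0.05, beside 10.9%. With the block 13 were called, 5 higher and 8 lower, beside 7.12% of all genes. The median log2 fold change of the 74 was -0.03.

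Of 17 other FGF ligands 11 were tested, and 1 was called higher and 3 lower with the block, beside 3.22% and 3.90% of all genes. Fgf8, a ligand of gastrulation and organisers, was at 2.31, 1.46 and 4.85 CPM in DMSO A, B and C and at 0.623, 0.251 and 1.05 CPM in MB-3 A, B and C. All MB-3 libraries were below all DMSO libraries, and the letters kept the keratins' order, C above A above B, in both groups. Its log2 fold change was -2.16 (adjusted p = 0.0830 with treatment only, 6.63e-09 with the block). Fgf5, a marker of the primed epiblast, was at 8.0, 4.88 and 11.6 CPM in DMSO and at 4.52, 4.69 and 7.04 CPM in MB-3 (log2 fold change -0.59, adjusted p = 0.401 and 0.00140 with the block), and it too differed between letters (adjusted p = 8.44e-05), with C highest in both treatments. Fgf10 was also called lower with the block (-0.82, adjusted p = 0.00280) and Fgf1 higher (0.39, adjusted p = 0.00263). Fgf17 and Fgf1 were the most abundant of these ligands, and Fgf17 stood at a log2 fold change of 0.02.

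Of the other receptors and co-receptors 5 of 8 were tested and 0 called in either fit, with 1 (Flrt2) at an unadjusted p under 0.05, beside 10.9% of all genes. Calls were made for 0.205% of all genes with treatment only and 7.12% with the block. The most abundant were the decoy-like receptor Fgfrl1 (log2 fold change -0.14) and Flrt3 (-0.10), and all 5 had values below 0, beside 49.7% of all genes above 0. Among 13 adaptors and RAS genes, Frs2, which docks on FGF receptors, and Gab1 were called higher with the block (0.16, adjusted p = 0.0492, and 0.18, adjusted p = 0.0119), beside 3.22% of all genes and 5.74% of abundant genes called higher. Gab1 was the most abundant of them, at 219, 226 and 197 CPM in DMSO and at 241, 239 and 246 CPM in MB-3, without overlap, and Nras followed with a log2 fold change of 0.04. Of 12 RAF, MEK and ERK kinases 1 was called with the block, Braf (0.16, adjusted p = 0.0492), a share near the 7.12% of all genes. Rps6ka1, a kinase downstream of ERK, was among the most abundant of them, with a log2 fold change of 0.03, and was called in neither fit.

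**Figure D4:**
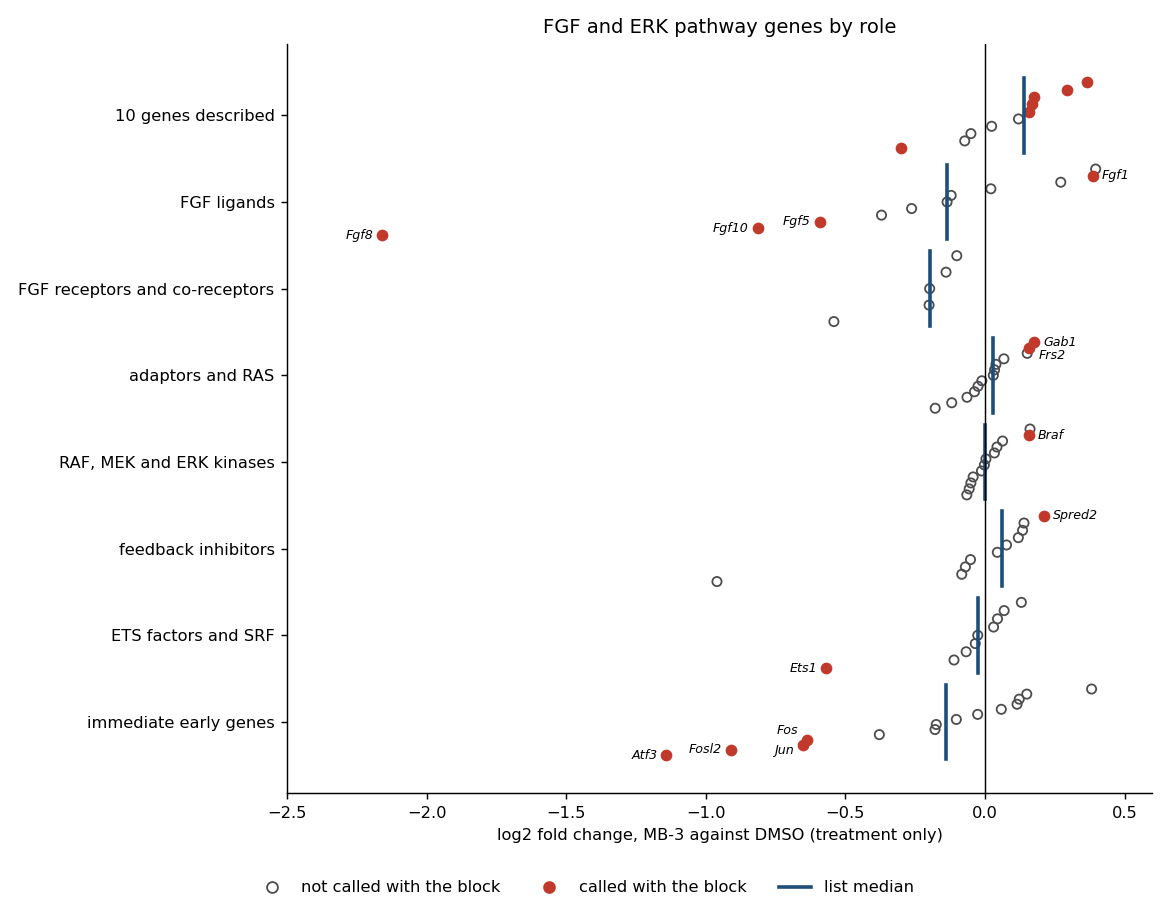
Log2 fold change of MB-3 against DMSO, treatment only (horizontal axis), for the 10 genes and for the tested genes of 7 pathway lists (rows); filled points passed the threshold with the replicate letter as a block, and blue lines are list medians. The list medians run from -0.20 for receptors and co-receptors to 0.06 for feedback inhibitors, below the 0.14 of the 10 genes.

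Among 10 other feedback inhibitors tested, Spred2, a Sprouty-related inhibitor of RAS signalling, was the 1 gene called with the block, and was higher (0.21, adjusted p = 0.00420). That count too is near the 7.12% of all genes and the 9.91% of abundant genes. It was at 72.9, 71.5 and 65.9 CPM in DMSO and at 85.3, 80.3 and 77.7 CPM in MB-3, without overlap. The most abundant of this list were Il17rd (log2 fold change -0.05) and Spred1 (0.14), neither called. Of the list of 9 ETS factors and Srf, Ets1 was called lower with the block (-0.56, adjusted p = 0.00454), beside 3.90% of all genes. It also differed between letters (adjusted p = 0.000305), in the keratins' order of C above A above B in both treatments. The most abundant, Erf and Srf, stood at 0.04 and -0.03.

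Among the immediate early genes, 14 of 16 were tested, and 4 were called with the block, all lower, beside 3.90% of all genes. They were the AP-1 and related factors Fos, Fosl2, Jun and Atf3. With the block, their log2 fold changes were -0.61 (Fos, adjusted p = 0.00490), -0.85 (Fosl2, 0.000374), -0.64 (Jun, 8.66e-05) and -1.09 (Atf3, 8.93e-06). Each also differed between letters, with B lowest in both treatments. Fosl2, Jun and Atf3 kept the keratins' order, C above A above B, in both, and for Fos MB-3 A was above MB-3 C. Atf3 was at 3.68, 1.79 and 6.46 CPM in DMSO A, B and C and at 1.79, 1.12 and 2.5 CPM in MB-3 A, B and C. Jun was at 6.81, 5.64 and 9.96 CPM in DMSO and at 4.84, 3.83 and 5.6 CPM in MB-3. For these genes, the level in DMSO C was the highest of the 6 libraries, and the part of the letter in the values was not tested beyond the block. The more abundant members Mcl1 (log2 fold change 0.12) and Ier2 (0.06) were called in neither fit.

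H3K9ac marks active promoters and is laid down in part by Kat2a. Peaks could be assigned to 3 of the 10 genes, Dusp6, Spry2 and Etv5, through the study's own peak annotation, of which the first 1999 peaks of each treatment were used. The other 7 genes were not analysed here. The lists give positions on mm9 without heights, and there are no replicates between which to measure a spread. In all, 7521 of 11724 DMSO peaks (64.2%) overlapped no MB-3 peak.

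Dusp6 had 2 DMSO peaks, at chr10:98723415-98725553 (2139 bp) and chr10:98725977-98727798 (1822 bp), the 99th and 199th widest of the list. In MB-3 there were 3 peaks of 310.0, 384 and 649 bp, all inside the DMSO peaks and together 33.9% of their length. Spry2 had DMSO peaks of 3636 bp (chr14:106292602-106296237), the 2nd widest of all 11724, and of 1272 bp (chr14:106297293-106298564). Its MB-3 peaks measured 563, 1737 and 860.0 bp, 64.4% of the DMSO length. Etv5 was listed with 4 MB-3 peaks of 301, 299, 357 and 381 bp. They overlapped DMSO peaks of 2293, 275 and 792 bp, of which the widest lay at chr16:22409543-22411835, and had 39.8% of their length. Between these stood 2 further DMSO peaks, of 791 and 321 bp, that no MB-3 peak overlapped.

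Over both whole lists the summed length of the MB-3 peaks was 31.5% of that of the DMSO peaks, and 61.3% where only overlapping peaks were summed. The peaks of Spry2 and Etv5 were found through the MB-3 list, so that overlap there follows from the way they were found. Counted by coverage of at least 50% of the DMSO peak by a single MB-3 peak, 1 peak was shared in place of 10, and 4 when only peaks of at least 500 bp were kept. Spry2 and Etv5, whose RNA was called higher with the block, had a shorter peak length in the MB-3 list. So did Dusp6, whose RNA was not called (log2 fold change 0.12), and so did the list as a whole. The number of reads behind each list is unknown here, and the study's methods call it relatively low. Its part in the peak lengths was not tested.

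**Figure D5:**
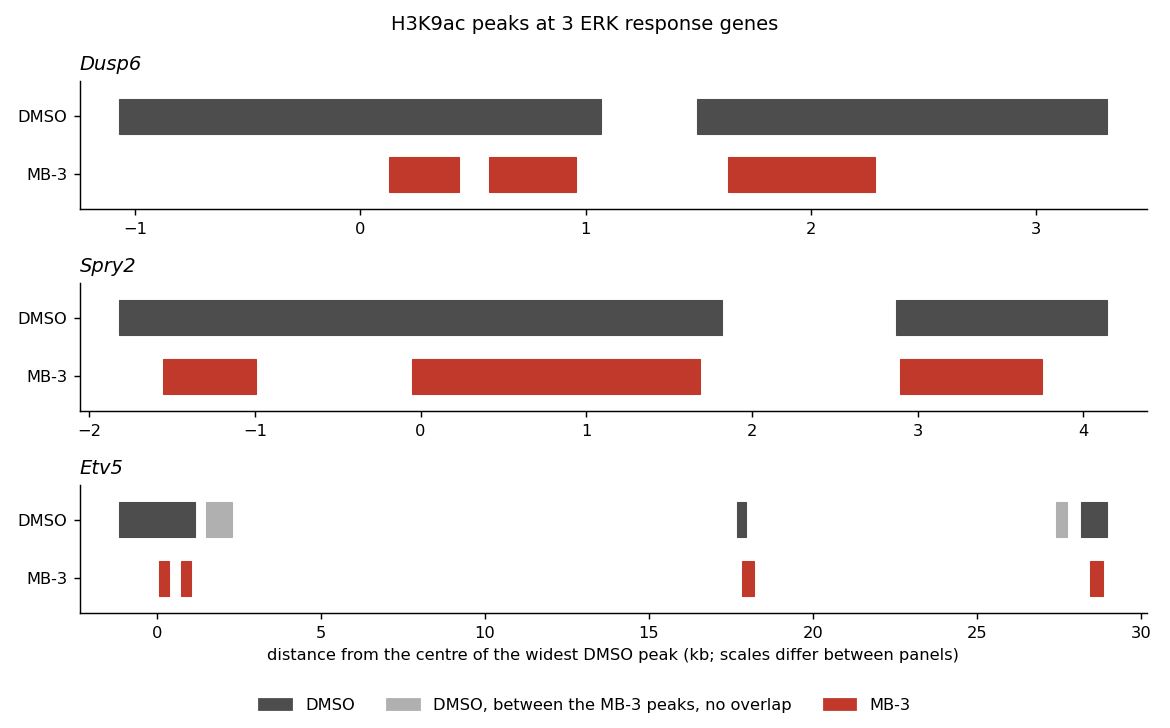
H3K9ac peaks at Dusp6, Spry2 and Etv5 as distance in kb from the centre of the widest DMSO peak (horizontal axis, scale differing between panels); boxes are peaks of the DMSO list (dark grey, or light grey without an MB-3 overlap) and of the MB-3 list (red). The MB-3 peaks are narrower than the DMSO peaks they overlap, except the 357 bp peak of Etv5 over a DMSO peak of 275 bp.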

How the data were processed

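RNA-seq and H3K9ac ChIP-seq of TNGA cells were used. Raw counts per gene were deposited by the authors, from single-end reads aligned with Bowtie (mm10) and assigned to exons by GenomicAlignments; versions, annotation release and use of strand are not given in the sources used here. They aligned ChIP-seq reads to mm9 with BWA, merged duplicates, called peaks with MACS2 and deposited positions only. The peak annotation supplied gene names alone.

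Counts were fitted with edgeR 4.0.16 in R 4.3.3 (filterByExpr, TMM, glmQLFit, glmQLFTest, treatment as the only term), with Benjamini-Hochberg adjustment over 20027 genes and a threshold of 0.05. The letter was tested with both its coefficients in the additive fit. Symbols and models came from GENCODE M21 (GRCm38), with 30540 of 30677 identifiers matched, and promoters from RefSeq. Library totals of 42270312 to 51137896 counts gave 752 to 22956 counts for each of the 10 genes in a library, and the median SE of a log2 fold change was 0.10. No replicate pair agreed within sampling noise. On simulated data the test called 86% of changed genes with treatment only and 85.5% with the block, among 19778 genes each, and 8.99% and 10.9% of the calls were unchanged genes. Of genes given a 1.5-fold change, 72% were called in either fit. The changes of the 10 genes were smaller than 1.5-fold, so these rates do not measure how often such changes are called. The simulated data behind them held no difference between letters, so they do not show how the block performs where letters differ.

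The 10 genes and all lists were chosen with earlier results of these data known. Named genes were the 10, pathway genes called in either fit, the 2 most abundant genes of each list, and the 5 of most similar pattern; marker genes were given by count with the most abundant of each list, and other marker genes were named after their values were seen. The result for 1 gene that this rule names is not reported here. Alternatives were RLE and upper-quartile scaling, 2 other filters, DESeq2 1.42.0, limma-voom (limma 3.58.1), robust dispersions, the replicate block, each library or letter left out, and other peak overlap rules. Figures were drawn with matplotlib 3.10.9 in Python 3.11.15.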

Additional observations from a re-analysis of the deposited data

How the results depend on the processing

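Of the 10 genes, 0 were called with treatment only, 1 (Fgfr2) without a filter on low counts, with DESeq2 and with robust dispersions, and 6 with the replicate block. Leaving out single libraries called 0 to 2 of them, the 2 being Fgfr2 and Spry4 without DMSO B. With the block, leaving out a letter called 3 to 4, and leaving out only DMSO C, chosen after seeing the data, called 3. Over 18 alternatives Fgfr2 was called in 9, Spry4 in 6, Fgf4 and Etv5 in 3, Spry2 and Egr1 in 2, and these 6 genes, Fgfr1 and Dusp6 kept their direction in all 18. Dusp4 reversed to -0.0016, -0.029, -0.045 and -0.016 without DMSO A, DMSO B, MB-3 C, and letter A in the block (range over single libraries left out -0.045 to 0.10), and Etv4 reversed to 0.051 and 0.062 without DMSO B and without letter B in the block (range -0.11 to 0.051). Genes called in all numbered 41, but 25 with upper-quartile scaling, 194 without a filter, 24 at 1 CPM or more in 3 libraries, 192 with DESeq2, 18 with limma-voom, 66 with robust dispersions and 1425 with the replicate block. They ranged from 0 to 520 without single libraries (3 without DMSO A, 520 without DMSO B, 5 without DMSO C, 0 without MB-3 A or B, 62 without MB-3 C). At 0 calls, 1440 and 1716 genes had an unadjusted p under 0.05. With the block they were 939 without letter A, 912 without B and 1037 without C, and were 1034 without DMSO C. Other pathway genes called went from 0 to 1 without a filter or with DESeq2, 13 with the block (9 to 13 without a letter, 9 without DMSO C), and 0 to 9 without single libraries, the 9 without DMSO B. The cause of these shifts was not tested. Genes called for the letter went from 1570 to 656 with the DESeq2 likelihood ratio test, which called 0 of the 10, and ranged from 324 to 1741 without a letter, the 324 without B. Shared peaks went from 10 to 1 under the 50% rule and to 4 at 500 bp. Deviations of same-lettered libraries correlated at 0.098 (A), 0.261 (B) and 0.213 (C) over 20027 genes, and each library correlated best with its own letter. This is a hint from the data, and the samples were taken to share only a letter.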
